A study of Mus musculus with 7 samples.

Results

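The glutathione transferases and the UDP-glycosyltransferases of families 2 and 3 were examined in liver RNA of mice fed the CDAHFD, a high-fat diet without choline that brings on steatohepatitis. The members were all genes whose symbols begin with Gsta, Gstk, Gstm, Gsto, Gstp, Gstt, Gstz, Mgst, Ugt2a, Ugt2b or Ugt3a and a number, without pseudogenes, which gave 37 of the 23347 genes counted. They comprised 26 glutathione transferases and 11 Ugt genes, and 33 of them, 23 and 10, had enough counts to be tested. Livers came from 4 mice labelled WT-CDAHFD, which were *B4galt1* flox/flox littermates, and 3 mice labelled B4-HKO-CDAHFD, in which *B4galt1* flox/flox was combined with *Alb-Cre*, a Cre recombinase under the albumin promoter that acts in hepatocytes. All mice were male, on a C57BL/6 background, 6 to 8 weeks old when feeding began and fed the CDAHFD for 15 weeks. The WT-CDAHFD mice thus carried the floxed allele and the diet as well, without Cre, and no mouse with *Alb-Cre* alone and no chow-fed mouse was analysed here. Each library came from the whole liver tissue of 1 mouse.

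Glutathione transferases couple the tripeptide glutathione to reactive compounds such as lipid aldehydes and drug metabolites. Most are soluble enzymes of the Alpha, Mu, Pi, Theta, Zeta and Omega classes, the Kappa enzyme sits in mitochondria and peroxisomes, and the Mgst enzymes are membrane proteins. Ugt2 enzymes attach glucuronic acid to steroids, bile acids and drugs in the endoplasmic reticulum, whereas Ugt3 enzymes use other UDP-sugars, and the conjugates of both systems leave the hepatocyte through transporters.

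*B4galt1*, the gene targeted in the B4-HKO-CDAHFD mice, read 48.7, 53.0, 49.2 and 51.6 CPM in WT-CDAHFD replicates 1 to 4, where CPM is the count scaled to the library total and normalized by edgeR's TMM method. In replicates 1 to 3 labelled B4-HKO-CDAHFD it read 28.4, 23.9 and 53.7 CPM. Replicate 3 was therefore above every WT-CDAHFD mouse and goes against its label, although the count covers the whole gene and the sources used here do not say which part Cre removes. The groups overlapped, and the log2 difference of -0.52 did not pass the test (SE 0.26, adjusted p = 0.181). Without replicate 3 the difference was -0.96 and passed (adjusted p = 0.0139). For this reason the counts of members called are also given without replicate 3, and the members called in that fit are named. Total counts ranged from 30608271 to 39668509 per mouse, and all 3 libraries labelled B4-HKO-CDAHFD were smaller than the 4 others. Mitochondrially encoded transcripts took 3.88% to 8.0% of the counts in WT-CDAHFD livers and 14.4% to 22.6% in livers labelled B4-HKO-CDAHFD, with the lowest of these in replicate 3. In bulk tissue, fewer cells of a type and less RNA per cell cannot be told apart.

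Many of the members share chromosomes. According to RefSeq (GRCm38.p6), 9 of them stand on chromosome 5, all Ugt2 genes, 8 on chromosome 3 with the Mu class and *Mgst2*, and 5 on chromosome 19 with the Pi and Omega classes, while *Ugt3a1* and *Ugt3a2* share chromosome 15. Related genes can be near copies. Between *Gstp1* and *Gstp2* the coding sequences of GENCODE transcripts were 98.1% identical, with 12 mismatches over 633 bases, and 54.6% of the 100-base windows of the *Gstp2* transcript occurred unchanged in another member. *Ugt2b38* and *Ugt2b5* were 97.0% identical, *Gsta1* and *Gsta2* 97.5%, and *Ugt3a1* and *Ugt3a2* 93.3%. Of the 100-base windows of *Ugt2b38* 24.2% occurred in another member, against none of those of *Ugt3a1*, *Gstm4* or *Mgst3*. How the authors' counting treated reads that match several genes is not given in the sources used here, so that values of *Gstp1*, *Gstp2*, *Gsta1*, *Gsta2*, *Ugt2b5* and *Ugt2b38* may hold reads of a copy.

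Promoter windows of 300 bases, from 250 before to 50 after an annotated start, were matched in the RefSeq table for 34 of the 37 members, as 43 windows. The 150 bases before the start are shown for the Pi pair, of which *Gstp2* was called higher, for the *Ugt2b* genes that resemble each other most, for *Ugt3a1*, and for *Mgst1*, the member with the highest level, all 5′ to 3′ on the gene's own strand. On the minus strand these are chr19:4037913-4038062 for *Gstp1*, chr19:4042222-4042371 for *Gstp2*, chr5:87140341-87140490 for *Ugt2b5*, chr5:87092556-87092705 for *Ugt2b36*, chr5:87254789-87254938 for *Ugt2b37* and chr5:87424204-87424353 for *Ugt2b38*. On the plus strand they are chr15:9279679-9279828 for *Ugt3a1* and chr6:138140377-138140526 for *Mgst1*. Capitals mark TGAGTCA, the AP-1 site, in the Pi pair, AGGTCA, a motif of nuclear receptors, in the *Ugt2b* genes, GTTAAT, a motif of the hepatocyte factor HNF1, in *Ugt3a1*, and TGACNNNGC, the core of the antioxidant response element, in *Mgst1*, and the last 2 are marked on the opposite strand.
Gstp1: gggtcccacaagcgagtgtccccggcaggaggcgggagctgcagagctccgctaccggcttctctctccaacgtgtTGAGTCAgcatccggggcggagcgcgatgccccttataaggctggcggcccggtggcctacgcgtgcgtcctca
Gstp2: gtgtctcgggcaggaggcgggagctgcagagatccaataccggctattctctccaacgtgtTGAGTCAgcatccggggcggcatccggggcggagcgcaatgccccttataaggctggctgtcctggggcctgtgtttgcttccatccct
Ugt2b5: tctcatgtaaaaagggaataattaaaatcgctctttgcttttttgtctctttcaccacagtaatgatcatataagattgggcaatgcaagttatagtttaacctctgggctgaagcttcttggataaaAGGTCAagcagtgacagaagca
Ugt2b36: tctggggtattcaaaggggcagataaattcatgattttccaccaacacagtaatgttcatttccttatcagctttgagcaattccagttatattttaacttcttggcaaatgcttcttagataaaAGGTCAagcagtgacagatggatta
Ugt2b37: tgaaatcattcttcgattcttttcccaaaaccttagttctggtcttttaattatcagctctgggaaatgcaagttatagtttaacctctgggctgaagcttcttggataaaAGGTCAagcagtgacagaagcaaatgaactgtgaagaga
Ugt2b38: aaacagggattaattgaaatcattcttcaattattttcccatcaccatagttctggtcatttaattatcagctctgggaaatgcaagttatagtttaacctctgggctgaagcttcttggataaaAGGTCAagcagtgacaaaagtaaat
Ugt3a1: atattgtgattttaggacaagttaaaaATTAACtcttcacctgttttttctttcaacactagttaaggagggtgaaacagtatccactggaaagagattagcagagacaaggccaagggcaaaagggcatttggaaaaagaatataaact
Mgst1: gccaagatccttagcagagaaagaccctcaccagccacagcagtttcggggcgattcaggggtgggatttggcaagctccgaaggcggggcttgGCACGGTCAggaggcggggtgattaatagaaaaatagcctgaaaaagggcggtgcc

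Both Pi promoters held TGAGTCA, 74 bases before the start in *Gstp1* and 89 in *Gstp2*, and the longest run that their windows share was 43 bases. *Ugt2b5*, *Ugt2b37* and *Ugt2b38* shared a run of 62 bases that includes AGGTCA. The motifs were searched on both strands and may overlap. Among the 43 member windows, 7 held AGGTCA (16.3%, against 16.2% of all 32544 windows), 5 held TGAGTCA (11.6% against 5.19%), 4 held TGACNNNGC (9.30% against 12.4%) and 3 held GTTAAT (6.98% against 7.14%). A match is a description of letters. Many members had no window with any of the 4 motifs, among them *Gstm4*, *Mgst3*, *Gstz1*, *Gsta2*, *Gstm2* and *Ugt2b1*. For *Mgst1* a second window, from another annotated start, is not shown and held none of the motifs.

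Levels were compared between genes on FPKM, the count per length of the gene and scaled to the library's total. *Mgst1*, the microsomal enzyme, had the highest level, with 2166 ± 431 FPKM (SD, n = 4) in WT-CDAHFD livers and 1741 ± 577 FPKM (SD, n = 3) in livers labelled B4-HKO-CDAHFD, and made up 47.0% ± 5.85 and 47.9% ± 6.42 of the summed FPKM of all glutathione transferases. Next came *Gstm1*, *Gsta3* and *Gstp1* with 657 ± 67.8, 425 ± 139 and 414 ± 17.6 FPKM in WT-CDAHFD livers, and the last 2 did not differ beyond their spread. *Gstt1* with 166 ± 6.99 FPKM and *Gstz1* with 160 ± 9.38 FPKM were also within their spread of each other. Among Ugt genes the levels were highest for *Ugt2b5* with 229 ± 24.1 FPKM and *Ugt2b36* with 218 ± 22.0 FPKM, again within their spread, followed by *Ugt3a2* with 151 ± 16.9 FPKM. Several of the genes called below had low levels, with *Gstm4* at 12.5 ± 0.790 FPKM, *Gstp2* at 3.86 ± 0.936 FPKM, *Ugt3a1* at 16.8 ± 2.64 FPKM and *Ugt2b38* at 0.939 ± 0.287 FPKM. Of the 4 members that were not tested, *Gsta5*, *Gsto2*, *Gstt4* and *Ugt2a1*, no mouse had more than 14 counts.

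**Figure D1:**
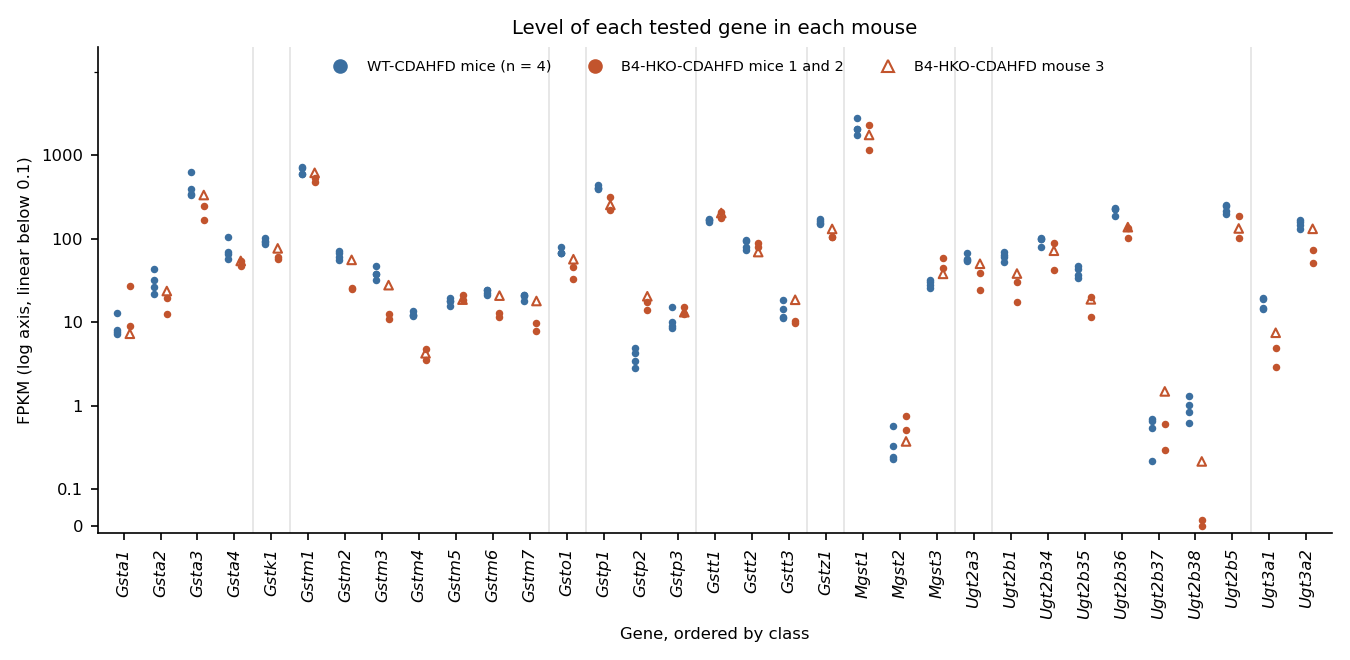
FPKM of the 33 tested members in each mouse, on a log axis that is linear below 0.1, with blue points for the 4 WT-CDAHFD mice, filled orange points for replicates 1 and 2 labelled B4-HKO-CDAHFD and open triangles for replicate 3. Group means are highest for *Mgst1*, with 2166 and 1741 FPKM in WT-CDAHFD mice and in mice labelled B4-HKO-CDAHFD, and lowest for *Mgst2* in the first group, with 0.343 FPKM, and for *Ugt2b38* in the second, with 0.0764 FPKM.

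The comparison of the groups asks what the loss of B4galt1 in hepatocytes goes along with under the diet. Among the 33 members tested, *Gstm4*, *Ugt2b35*, *Ugt2b38* and *Ugt3a1* fell and *Gstp2* and *Mgst3* rose, with Benjamini-Hochberg adjusted p-values below 0.05 and log2 fold changes beyond 0.58 in either direction. These 4 lower members compare with 7.83% of all 15179 genes tested, and the 2 higher ones with 8.00%, so that the share of members called in either direction, 18.2%, was near the 15.8% over all genes. The members lay below 0 more often, however, with a negative log2 fold change in 23 of 33 (69.7%, against 48.7% of all genes) and a median of -0.45 against 0.02. For the Ugt genes the median was -0.66, with 9 of 10 negative, and for the glutathione transferases it was -0.35, with 14 of 23 negative. The groups did not overlap in 8 members that were lower and 3 that were higher, where 15.0% and 13.6% of all genes did so.

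Without replicate 3 labelled B4-HKO-CDAHFD, 10 members were called lower, against 7.51% of the 15639 genes then tested, and 2 higher, against 6.28%. The median of the members was then -0.57, against 0.02 over all genes. The 4 members that fell with all mice were among the 10, and *Gstp2* and *Mgst3* were again the 2 that rose. The other 6 were *Gstm2*, *Gstm3*, *Gstm6*, *Gstm7*, *Ugt2b1* and *Ugt3a2*, of which *Gstm3*, *Gstm6* and *Gstm7* are named after their values were seen.

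**Figure D2:**
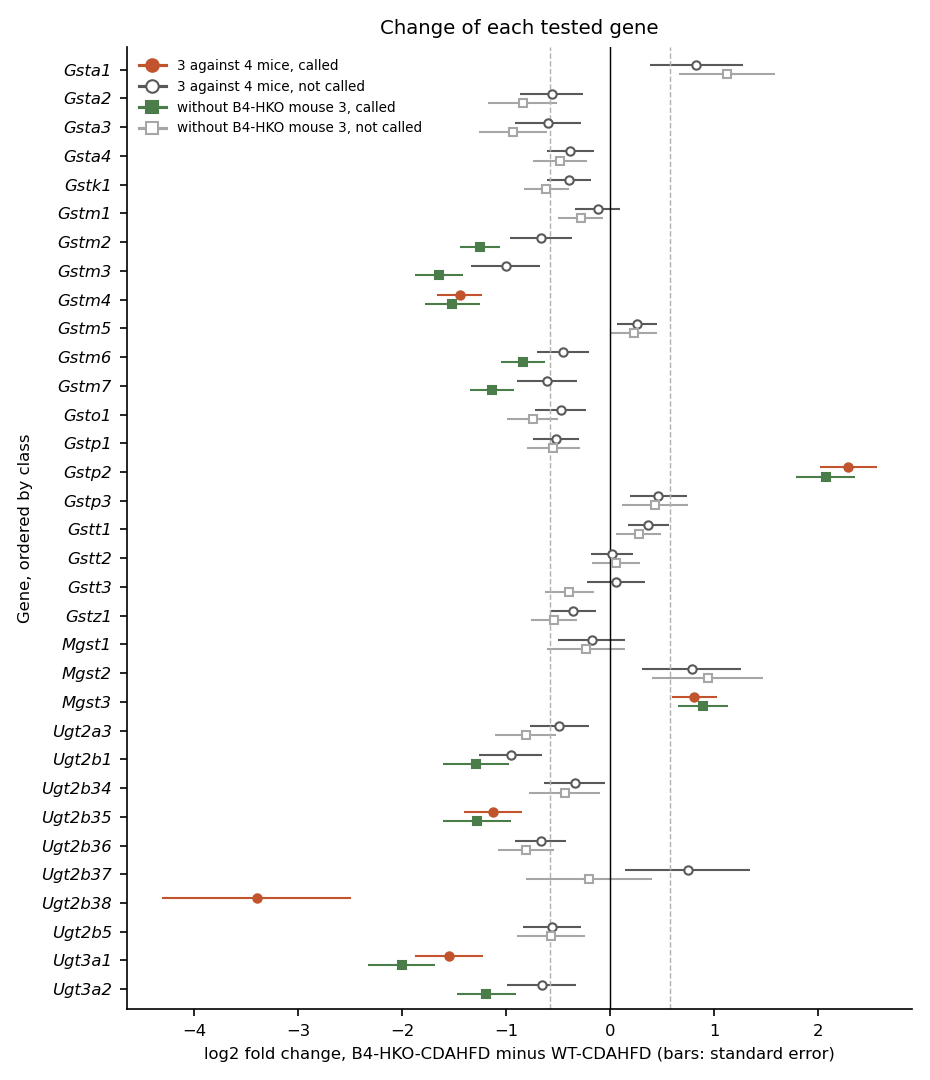
Log2 fold change of each tested member, B4-HKO-CDAHFD minus WT-CDAHFD, with standard errors, for all 7 mice (circles) and without replicate 3 labelled B4-HKO-CDAHFD (squares), filled where called and open where not, with dashed lines at 0.58 on either side of 0. Filled circles are 4 below and 2 above 0, and filled squares are 9 below and 2 above. *Ugt2b38*, the tenth member called lower without replicate 3, has no square, since 1 count in all remained in that group.

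In the Mu class, *Gstm4* (NCBI gene 14865), a soluble transferase of chromosome 3, fell, and every mouse labelled B4-HKO-CDAHFD showed it. It read 23.9, 30.4, 24.7 and 29.3 CPM in WT-CDAHFD replicates 1 to 4 and 11.8, 7.27 and 10.8 CPM in replicates 1 to 3 labelled B4-HKO-CDAHFD. The groups did not overlap, and the log2 fold change was -1.45 (SE 0.22, adjusted p = 0.00377), and -1.52 (SE 0.26, adjusted p = 0.00889) without replicate 3. Its share of the summed FPKM of the Mu class was 1.34% to 1.76% in WT-CDAHFD mice and 0.555% to 0.763% in the others, so that it was lower relative to its class too.

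*Gstm1*, the Mu enzyme with the highest level, read 877, 821, 890 and 877 CPM in WT-CDAHFD mice and 822, 609 and 962 CPM in mice labelled B4-HKO-CDAHFD. Replicate 2 was below and replicate 3 above all WT-CDAHFD mice, and the log2 difference of -0.12 did not pass the test (SE 0.22, adjusted p = 0.731). The share of *Gstm1* within the Mu class was 77.5% to 80.1% in WT-CDAHFD mice and 81.0% to 86.9% in the others. *Gstm2* was split within the group, with 63.5, 62.5, 63.7 and 60.6 CPM in WT-CDAHFD mice against 28.4, 24.4 and 65.4 CPM. Replicate 3 stood above every WT-CDAHFD mouse and replicates 1 and 2 far below, and the log2 difference was -0.67 (adjusted p = 0.143) with it and -1.25 (adjusted p = 0.00674) without it. *Gstm3* read 39.2 to 51.7 CPM in WT-CDAHFD mice and 16.3, 12.1 and 37.5 CPM in the others. Its groups did not overlap, and the log2 difference of -1.01 missed the test (SE 0.33, adjusted p = 0.0582) and passed it in 8 of the 20 alternatives, among them DESeq2 (adjusted p = 0.0176) and the fit without replicate 3 (-1.64, adjusted p = 0.0062). *Gstm6* and *Gstm7* had replicate 3 within the range of the WT-CDAHFD mice, with differences of -0.45 and -0.61 that did not pass. *Gstm5* had 11.4 to 16.3 CPM in WT-CDAHFD mice and 16.6 to 17.8 CPM in the others, without overlap, and its difference of 0.26 did not pass either (adjusted p = 0.369).

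The Pi class held the larger of the 2 rises. *Gstp2* (NCBI gene 14869) read 3.27, 2.56, 1.97 and 3.42 CPM in WT-CDAHFD mice and 11.8, 11.9 and 17.5 CPM in mice labelled B4-HKO-CDAHFD. Every mouse of the second group was above every mouse of the first, with the highest value in replicate 3, and the log2 fold change was 2.29 (SE 0.27, adjusted p = 0.00214), and 2.07 (SE 0.29, adjusted p = 0.0062) without replicate 3. *Gstp1*, its near copy and the main Pi enzyme of the liver, read 259, 303, 303 and 326 CPM in WT-CDAHFD mice and 259, 151 and 215 CPM in the others, where replicate 1 lay just below the lowest WT-CDAHFD mouse. Its log2 difference of -0.52 did not pass the test (SE 0.22, adjusted p = 0.127). Of the summed FPKM of both genes, *Gstp2* took 0.639% to 1.23% in WT-CDAHFD mice and 4.30% to 7.43% in the others. *Gstp3*, whose nearest member *Gstp1* is 73.7% identical, had a difference of 0.46 with overlapping groups (adjusted p = 0.255), and the Pi pseudogene *Gstp-ps*, which is no member, one of 0.37 (adjusted p = 0.302).

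**Figure D3:**
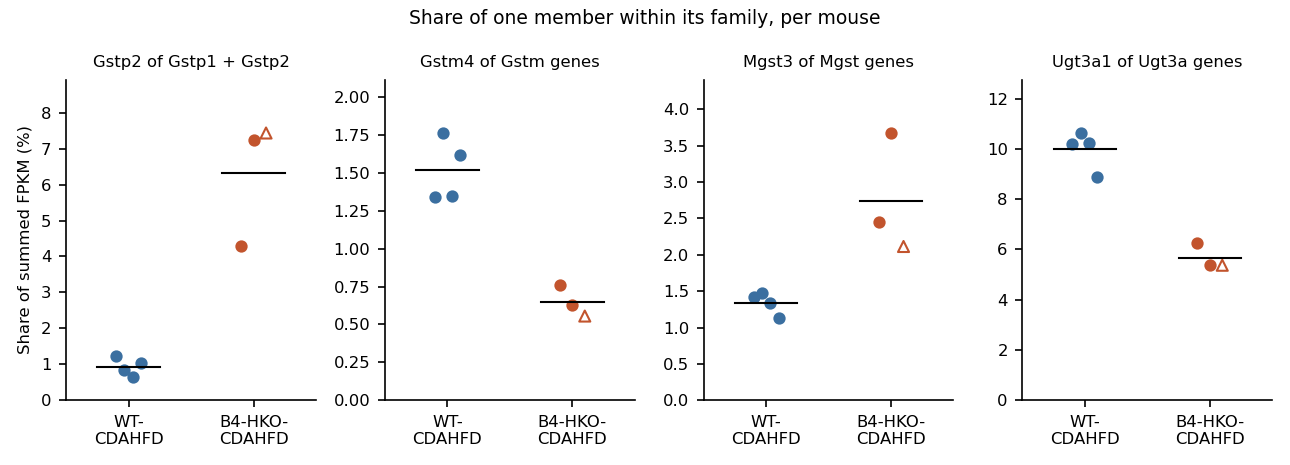
Share of one member in the summed FPKM of its family in each mouse, in percent on axes that start at 0, for *Gstp2* of *Gstp1* and *Gstp2*, *Gstm4* of the Mu class, *Mgst3* of the Mgst genes and *Ugt3a1* of the Ugt3a genes, with blue points for WT-CDAHFD mice, orange points for mice labelled B4-HKO-CDAHFD, an open triangle for replicate 3 and a line at the mean. In each panel the groups do not overlap, and *Gstp2* went from 0.931% to 6.33% on average.

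No Alpha class gene was called. *Gsta3*, the Alpha enzyme with the highest level, read 483, 633, 951 and 593 CPM in WT-CDAHFD mice and 445, 254 and 619 CPM in the others, so that the groups overlapped through replicate 3, and its difference of -0.60 did not pass the test (SE 0.32, adjusted p = 0.215). *Gsta4*, which is known for conjugating the lipid peroxidation product 4-hydroxynonenal, had 55.3, 65.9, 94.0 and 58.6 CPM in WT-CDAHFD mice and 56.5, 42.1 and 59.0 CPM in the others. These ranges overlapped, with a difference of -0.38 (SE 0.23, adjusted p = 0.262). *Gsta1* read 5.68, 6.12, 6.44 and 12 CPM in WT-CDAHFD mice, and 26.0, 7.09 and 7.10 CPM in the others, so that its difference of 0.83 (adjusted p = 0.219) rested on replicate 1, without which it was -0.10. *Gsta2* pointed down, with -0.56 (adjusted p = 0.215).

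No Theta class gene was called either. *Gstt1* read 160, 170, 175 and 194 CPM in WT-CDAHFD mice and 250, 176 and 252 CPM in the others, where replicate 2 lay inside the WT-CDAHFD range, and its difference was 0.37 (SE 0.20, adjusted p = 0.216). *Gstt2* had 142, 127, 127 and 178 CPM against 173, 127 and 137 CPM. The groups covered nearly the same range, and the difference of 0.02 (SE 0.20, adjusted p = 0.958) changed sign under 7 of the 20 alternatives. *Gstt3* likewise changed sign under 6 of them, around a difference of 0.06.

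*Gstz1*, the Zeta enzyme, which acts as maleylacetoacetate isomerase in tyrosine breakdown, read 524, 648, 635 and 664 CPM in WT-CDAHFD mice and 466, 388 and 596 CPM in the others. Replicates 1 and 2 were below all WT-CDAHFD mice and replicate 3 within their range, and the difference of -0.35 did not pass (SE 0.22, adjusted p = 0.279). *Gstk1*, the Kappa enzyme, had 73.9, 86.2, 75.2 and 101 CPM against 59.0, 51.5 and 81.0 CPM, with the same arrangement of mice and a difference of -0.40 (SE 0.21, adjusted p = 0.214). *Gsto1*, an Omega enzyme that reduces dehydroascorbate, had 68.7, 79.2, 86.7 and 84.6 CPM against 59.6, 36.3 and 76.1 CPM. Replicate 3 was again inside the WT-CDAHFD range, and the difference of -0.48 did not pass (SE 0.24, adjusted p = 0.191).

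Of the membrane-bound enzymes, *Mgst3* (NCBI gene 66447), which has glutathione transferase and peroxidase activity and can make leukotriene C4, rose. It read 24.5, 33.5, 28.5 and 37.1 CPM in WT-CDAHFD mice and 70.4, 44.8 and 47.3 CPM in mice labelled B4-HKO-CDAHFD. The groups did not overlap, with replicate 1 highest, and the log2 fold change was 0.81 (SE 0.22, adjusted p = 0.0287), and 0.89 (SE 0.24, adjusted p = 0.0379) without replicate 3. The call was lost when WT-CDAHFD replicate 1, 2 or 3 or replicate 1 labelled B4-HKO-CDAHFD was left out, where edgeR's adjusted p-values came to 0.0528, 0.0700, 0.0674 and 0.104. *Mgst1* read 2173, 2877, 2687 and 4176 CPM in WT-CDAHFD mice and 3594, 1503 and 2806 CPM in the others. The groups overlapped widely, and its difference of -0.18 (SE 0.32, adjusted p = 0.734) turned to 0.03 without WT-CDAHFD replicate 4 and to 0.10 without replicate 2 labelled B4-HKO-CDAHFD. *Mgst2* was weakly detected, with 17 to 43 counts per mouse.

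Among the Ugt2 genes, *Ugt2b35* and *Ugt2b38* fell, and every other tested member but *Ugt2b37* had a negative difference that did not pass the test. *Ugt2b35* (NCBI gene 243085) read 108, 156, 106 and 157 CPM in WT-CDAHFD mice and 73.7, 35.5 and 71.6 CPM in mice labelled B4-HKO-CDAHFD. Each of the 3 mice was below each of the 4, and the log2 fold change was -1.13 (SE 0.28, adjusted p = 0.0225), and -1.28 (SE 0.33, adjusted p = 0.0313) without replicate 3. It missed the threshold without WT-CDAHFD replicate 2 (adjusted p = 0.0660) and without WT-CDAHFD replicate 4 (adjusted p = 0.0526).

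*Ugt2b38* (NCBI gene 100559) was a weakly detected gene, with 60, 97, 46 and 73 counts in WT-CDAHFD mice and 1, 0 and 14 counts in mice labelled B4-HKO-CDAHFD, which is 1.38, 2.43, 1.08 and 2.06 CPM against 0.0325, 0 and 0.460 CPM. Only replicate 3 of the second group rose above the 3 counts taken as the limit of detection, and no mouse came near the WT-CDAHFD range. The fitted log2 fold change was -3.40 (SE 0.91, adjusted p = 0.0293), and the gene was also called lower without replicate 3 (adjusted p = 0.0062), where the fitted value moved to -6.52. How far these values depend on the prior count that edgeR adds to low counts was not tested. Over the alternatives that gave a value the log2 fold change spanned -6.52 to -0.84. The call was lost without WT-CDAHFD replicate 2, without WT-CDAHFD replicate 4 and without replicate 1 labelled B4-HKO-CDAHFD (adjusted p-values of 0.0784, 0.0570 and 0.0704). *Ugt2b5*, which shares the 62-base promoter run and 97.0% of the coding sequence with *Ugt2b38*, read 360, 460, 352 and 511 CPM in WT-CDAHFD mice and 394, 176 and 286 CPM in the others. These groups overlapped through replicate 1, with a difference of -0.56 (SE 0.28, adjusted p = 0.182).

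*Ugt2b36* read 307, 442, 396 and 454 CPM in WT-CDAHFD mice and 284, 175 and 295 CPM in the others, without overlap, and its difference of -0.67 did not pass (SE 0.24, adjusted p = 0.0796). The difference passed in 5 of the 20 alternatives, among them DESeq2 (adjusted p = 0.0384). *Ugt2b1*, a major steroid and drug glucuronidating enzyme of rodent liver, had 117, 178, 144 and 172 CPM against 84.1, 41.4 and 111 CPM. The groups did not overlap either, and the difference of -0.96 missed the threshold narrowly (SE 0.30, adjusted p = 0.0516) and passed it in 11 of the 20 alternatives, which include leaving out replicate 3 (-1.29, adjusted p = 0.0269). *Ugt2b34* had 213, 306, 284 and 331 CPM against 300, 120 and 251 CPM, so that 2 of the 3 mice lay within the WT-CDAHFD range (difference -0.34, SE 0.29, adjusted p = 0.447). *Ugt2a3*, the one Ugt2a gene tested, had 108, 128, 118 and 164 CPM against 96.6, 51.2 and 128 CPM, with overlap through replicate 3 (difference -0.49, SE 0.29, adjusted p = 0.256). *Ugt2b37* pointed up by 0.75 (adjusted p = 0.413) on the 96 counts of replicate 3, without which the difference was -0.20.

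In the Ugt3 family *Ugt3a1* (NCBI gene 105887) fell, with 29.1, 42.7, 40.2 and 34.6 CPM in WT-CDAHFD mice and 12.4, 6.0 and 19.1 CPM in mice labelled B4-HKO-CDAHFD. The groups did not overlap, and the log2 fold change was -1.55 (SE 0.33, adjusted p = 0.012), and -2.0 (SE 0.32, adjusted p = 0.00731) without replicate 3. *Ugt3a2*, its neighbour with the higher level, read 251, 352, 346 and 348 CPM in WT-CDAHFD mice and 182, 104 and 331 CPM in the others. Replicate 3 was among the WT-CDAHFD mice, and the difference of -0.66 (SE 0.33, adjusted p = 0.189) was -1.19 without it (adjusted p = 0.0243). The share of *Ugt3a1* in the summed FPKM of both genes was 8.87% to 10.6% in WT-CDAHFD mice and 5.36% to 6.26% in the others, replicate 3 included.

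The mice labelled B4-HKO-CDAHFD differed among themselves in the same order for most members. Replicate 2 had the lowest value of the 3 in 29 of the 33 members tested and replicate 3 the highest in 22. Relative to the 4 WT-CDAHFD mice, replicate 1 was below all of them in 18 members, replicate 2 in 25 and replicate 3 in 9, whereas 8, 4 and 16 members lay within their range. Those below are 54.5%, 75.8% and 27.3% of the members, where 28.8%, 35.4% and 28.2% of all genes tested lay below all WT-CDAHFD mice in replicates 1, 2 and 3. Over all genes, replicate 2 was the lowest of the 3 in 39.2% and replicate 3 the highest in 33.1%. On the log2(CPM + 0.5) scale, the median of the members' differences from the WT-CDAHFD mean was -0.40, -1.02 and -0.04 in replicates 1, 2 and 3, where the median over all genes was between -0.0031 and 0.0083. Summed over all glutathione transferases, FPKM ranged from 4137 to 5039 in WT-CDAHFD mice and from 2716 to 4198 in the others, and over the Ugt genes from 772 to 934 and from 352 to 590. In the Ugt genes these sums did not overlap. FPKM is scaled to the library total without TMM, and on log2(FPKM + 1) the median over all genes shifted by -0.12. WT-CDAHFD replicate 1, with the lowest Ugt sum of its group, had a TMM factor of 1.14. Replicate 3 labelled B4-HKO-CDAHFD, with the highest of its group, had 0.879. Scaling by TMM brings these Ugt sums closer, and sums on that scale were not compared. *Gstm4*, *Gstp2* and *Ugt3a1* kept their call in all 20 alternatives, including those that left out each mouse in turn.

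**Figure D4:**
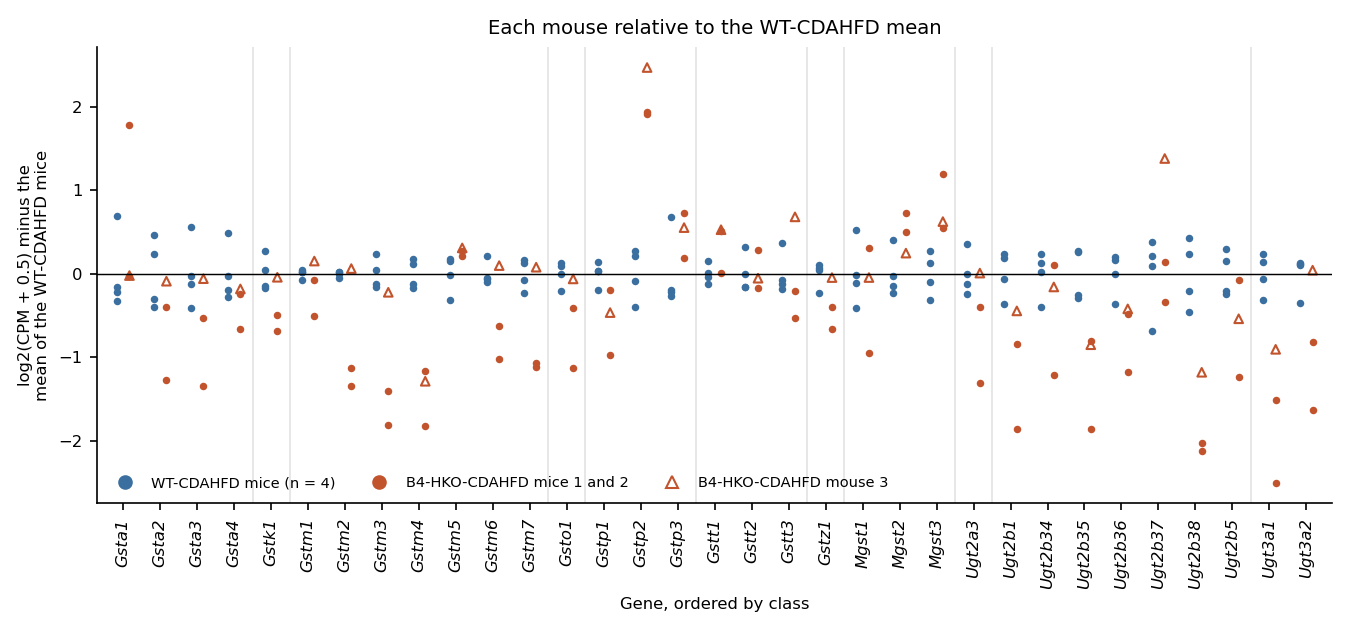
Log2(CPM + 0.5) of each tested member in each mouse minus the mean of the 4 WT-CDAHFD mice, with blue points for WT-CDAHFD mice, filled orange points for replicates 1 and 2 labelled B4-HKO-CDAHFD and open triangles for replicate 3. Replicate 3 is the highest of its group in 22 members and lies within the range of the WT-CDAHFD mice in 16.

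The supply of glutathione was followed in 16 genes, all tested, of which 3 fell and 1 rose. These counts and those of the lists that follow stand beside 7.83% of all genes called lower and 8.00% called higher. The genes of its synthesis were not called, with differences of 0.15 for *Gclc* (adjusted p = 0.635) and -0.31 for *Gclm* (adjusted p = 0.403), the subunits of glutamate-cysteine ligase, and -0.11 for *Gss* (adjusted p = 0.747), glutathione synthetase. *Gsr*, glutathione reductase, had a difference of -0.37 (adjusted p = 0.265). Those that fell were peptidases of glutathione and conjugate breakdown or of the same families. *Lap3* went from 220 ± 24.5 CPM to 112 ± 34.0 CPM (log2 fold change -0.98, adjusted p = 0.0219), *Anpep* had -0.61 (adjusted p = 0.0430) and *Ggt6* -0.98 (adjusted p = 0.0335), each without overlap. *Ggt1*, the gamma-glutamyltransferase, was called higher (2.12, adjusted p = 0.0471), yet it read 0.141 to 0.422 CPM in WT-CDAHFD mice and 1.04, 2.71 and 0.395 CPM in the others, so that the groups overlapped.

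The transporters of conjugates and organic anions comprised 11 genes, of which 4 fell and none rose. *Abcc2*, the canalicular export pump for glutathione and glucuronide conjugates, read 335, 319, 329 and 236 CPM in WT-CDAHFD mice and 127, 135 and 209 CPM in the others, without overlap (log2 fold change -0.96, SE 0.24, adjusted p = 0.0226). *Abcc3*, its basolateral counterpart, went from 223 ± 36.0 CPM to 134 ± 1.72 CPM (-0.74, adjusted p = 0.0274). The uptake carrier *Slco1b2* went from 529 ± 137 CPM to 218 ± 65.6 CPM (-1.28, adjusted p = 0.0133), while *Slco1a1* was low and overlapped between the groups (-3.54, adjusted p = 0.0302). *Slco1a1* had 5, 1 and 36 counts in mice labelled B4-HKO-CDAHFD, and its difference spanned -5.78 to -1.04 over the alternatives that gave a value. Of 8 genes of UDP-glucuronic acid supply and glucuronide removal 3 fell, which were *Pgm1*, a phosphoglucomutase (-1.09, adjusted p = 0.0133), *Slc35d2*, a nucleotide sugar transporter (-0.79, adjusted p = 0.0261), and *Gusb*, the beta-glucuronidase that splits glucuronides (-0.95, adjusted p = 0.0259). *Ugdh*, which makes UDP-glucuronic acid, had a difference of -0.58 that did not pass (adjusted p = 0.220).

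NRF2, encoded by *Nfe2l2*, is known to drive many glutathione transferase genes. *Nfe2l2* itself had a difference of -0.29 (adjusted p = 0.318) and its classical target *Nqo1* one of -0.28 (adjusted p = 0.488). Of the 9 genes tested among 10 listed for this pathway, 3 fell, namely *Cbr3*, a carbonyl reductase (-1.53, adjusted p = 0.0118), *Ephx1*, microsomal epoxide hydrolase (-0.87, adjusted p = 0.0183), and *Txnrd1*, thioredoxin reductase (-0.73, adjusted p = 0.0449). Among 8 receptors and factors that act on these enzymes, *Rxra*, the common partner of nuclear receptors, fell from 294 to 383 CPM in WT-CDAHFD mice to 128 to 162 CPM in the others (-1.15, SE 0.20, adjusted p = 0.00605). *Nr1i2*, the pregnane X receptor, rose, with 94.4, 90.6, 94.9 and 97.5 CPM in WT-CDAHFD mice and 155, 191 and 150 CPM in the others (0.81, SE 0.18, adjusted p = 0.0132). Of 7 other genes related to the glutathione transferase folds, *Alox5ap*, the 5-lipoxygenase activating protein, fell (-0.96, adjusted p = 0.0293), and it is expressed in leukocytes.

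Of the 17 genes called in these lists, *Slco1b2*, *Pgm1*, *Cbr3* and *Rxra* were also called in each of the 7 fits that left out 1 mouse. The other 13 missed the threshold in at least 1 such fit. *Ephx1* and *Nr1i2* did so without WT-CDAHFD replicate 2 (adjusted p = 0.0638 and 0.0557 with edgeR), and *Anpep* in all 7 fits (adjusted p-values from 0.0581 to 0.135). *Lap3* missed it in 2 fits, *Txnrd1* in 5, *Ggt1* and *Ggt6* in 6 each, and *Abcc2*, *Abcc3*, *Slco1a1*, *Gusb*, *Slc35d2* and *Alox5ap* in 4 each. By mouse, 3, 12, 8 and 7 calls were lost without WT-CDAHFD replicates 1 to 4, and 7, 10 and 5 without replicates 1 to 3 labelled B4-HKO-CDAHFD, with adjusted p-values up to 0.297, that of *Ggt1* without replicate 2 labelled B4-HKO-CDAHFD.

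Cell type markers that moved with the groups were mainly those of pericentral hepatocytes and macrophages. All 7 hepatocyte markers tested were detected in every mouse and none was called, with a summed level of 94703 to 138470 CPM in WT-CDAHFD mice and 106810 to 166389 CPM in the others. Most of this sum is *Alb*, with 57197 to 112935 CPM over all mice. Differences were 0.29 for *Alb*, 0.70 for *Apoa1*, 0.61 for *Serpina1a* and 0.43 for *Ttr*, but -0.06 for *Hpx*, -0.50 for *Trf* and -0.56 for *Apob*. Of 8 pericentral markers, *Glul*, *Cyp2e1*, *Oat* and *Slc1a2* fell, and their list summed to 11672 to 13209 CPM in WT-CDAHFD mice against 3187 to 6820 CPM. Of 8 periportal markers, 1 fell, *Aldh1b1* (-0.81, adjusted p = 0.0316), with sums of 7193 to 10272 CPM and 6235 to 9270 CPM. Of 7 macrophage markers 5 fell, *Adgre1*, *Cd68*, *Gpnmb*, *Trem2* and *Vsig4*, and the whole list of 7 summed to 719 to 1546 CPM in WT-CDAHFD mice and 339 to 409 CPM in the others. Of 5 endothelial markers *Kdr* fell (-1.33, adjusted p = 0.0441), and none of the 6 cholangiocyte, 7 stellate cell or 5 lymphocyte markers tested was called. The part of these markers and of the mitochondrial share in the changes of the glutathione transferases and Ugt genes was not tested. With the mitochondrially encoded genes left out before normalization, 5 members were called lower and 2 higher, against 1211 and 1207 of 15297 genes tested.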

How the data were processed

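Livers of 7 mice fed the CDAHFD were analysed, 4 labelled WT-CDAHFD and 3 labelled B4-HKO-CDAHFD, each a separate animal with 1 library. Replicate numbers come from the sample labels and do not pair the animals. The authors extracted total RNA with TRIzol and prepared the libraries with a VAHTS Universal kit. The submitters' processing notes name fastp, HISAT2, HTSeq, DESeq2, R 3.2.0 and the build GRCm39, while the annotation, the strand setting and the treatment of reads with several matches are not given in the sources used here. Deposited were raw counts, as whole numbers for each gene in each mouse, and a table of FPKM values, which the authors derived from the same counts. Among 13374 genes with no mouse below 10 counts, FPKM was the count over length and library total, with 0 genes deviating by more than 1%. No column of sample values was left unused.

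Counts were filtered with edgeR's filterByExpr (minimum count 10, minimum total 15), normalized by TMM and tested across all 15179 remaining genes by the quasi-likelihood F-test of edgeR 4.0.16 under R 4.3.3, with group as only term and Benjamini-Hochberg adjustment over all of them. A call needed an adjusted p below 0.05 and a log2 fold change beyond 0.58 in either direction, the thresholds of the study, which used DESeq2. Standard errors were computed from the F statistic. Adjusted p-values in the text are from this test unless another is named. Between 0.0690 and 0.0987 CPM correspond to 3 counts, the limit of detection used here, which covers counting error only. The test was tried on simulated counts first.

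The members and the gene lists were chosen with earlier results of these data known. By rule, full values are given for called members, members with a group mean of at least 50 FPKM and the member with the highest FPKM of each class. List genes other than cell type markers that were called, and *Gclc*, *Gclm*, *Gss*, *Gsr*, *Ugdh*, *Nfe2l2* and *Nqo1*, are named with the difference or its test and some with levels. Called markers are named, most of them without the difference or its test. Values of other members, such as *Gsta1* and *Gstm3*, were added after they were seen. The lists covered glutathione supply, conjugate transport, UDP-glucuronic acid, NRF2 targets, regulators, other genes of the transferase folds, and markers of hepatocytes, pericentral and periportal hepatocytes, cholangiocytes, stellate cells, macrophages, endothelium and lymphocytes. Promoter sequences are from RefSeq (GRCm38.p6), coding sequences from GENCODE M21, aligned globally with Biopython 1.88. These builds differ from that of the counts, so no coordinates of counted genes are given. As alternatives, normalization by RLE or the upper quartile, 2 other filters, DESeq2 1.42.0, limma 3.58.1 on FPKM with a pseudocount of 1 or 0.1 before the log2, voom with sample weights, a block for replicate numbers, 2 other thresholds for the fold change, removal of the 13 mitochondrially encoded genes, and the removal of each mouse in turn were tried.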

Additional observations from a re-analysis of the deposited data

Results flagged for a closer look

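In 6 of 58 genes examined, which were *B4galt1*, the tested members and the named pathway genes, 1 of the 4 WT-CDAHFD mice stood apart from the other 3 by Dixon's criterion, and chance alone flags about 1 in 20 such groups. WT-CDAHFD replicate 4 was high for *Gsta1*, with 12 CPM against 5.68 to 6.44 CPM in the others, for *Gstm6*, with 44.7 against 36.0 to 37.1 CPM, and for *Gstp3*, with 18.9 against 9.53 to 10.1 CPM. The same mouse was low for *Abcc2*, with 236 CPM against 319 to 335 CPM. WT-CDAHFD replicate 3 was high for *Gstt3*, with 32.2 CPM against 21.8 to 23.5 CPM. WT-CDAHFD replicate 1 was low for *Ugt3a2*, with 251 CPM against 346 to 352 CPM. Groups of 3 mice were not examined in this way.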

How the results depend on the processing

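The median log2 fold change of the members stayed negative under every alternative tried, from -0.65 on log2(FPKM + 0.1) to -0.23 without replicate 2 labelled B4-HKO-CDAHFD, and with mice left out in turn it ranged from -0.57 to -0.23. Members called lower numbered 7 with DESeq2, 14, 14 and 7 with limma on log2(FPKM + 1), on log2(FPKM + 0.1) and on all genes above 0, and 9 with voom, against 4 with edgeR. Over all genes the same fits called 1566, 1733, 1946, 1088 and 1446 lower against 1189, out of 22960, 10914, 10914, 22960 and 15179 against 15179 genes fitted. For glutathione transferases these counts were 2, 7, 7, 2 and 4 against 1, with 2 each under upper-quartile normalization, under the filter of 1 count in any mouse and under the replicate block, and for Ugt genes they were 5, 7, 7, 5 and 5 against 3. A single member was called higher on all genes above 0, under the block and at a log2 fold change over 1. Genes called over the whole table fell from 2404 to 1330 on all genes above 0, 1267 under the block (615 lower, 652 higher) and 1346 at the stricter fold change (574 lower, 772 higher). On the FPKM scale the median over all genes shifted by -0.12, -0.13 and -0.12, and 24.5%, 23.6% and 18.2% of the calls were higher against 50.5% on counts, with 561, 601 and 242 genes higher and 1946 lower at the pseudocount 0.1. There *B4galt1* passed the test with -0.67 and -0.73 at the pseudocounts 1 and 0.1, but not on all genes above 0 (adjusted p = 0.108, limma). With each mouse left out in turn, 885 to 2396 genes were called, 474 to 1175 lower and 411 to 1291 higher. Members called lower ranged from 2 to 10 and higher from 1 to 2, glutathione transferases lower from 1 to 5, Ugt genes lower from 1 to 5, and *B4galt1* from -0.96 to -0.30, passing the test without replicate 3 labelled B4-HKO-CDAHFD. The lowest of these counts came without WT-CDAHFD replicate 2 or 4 (2 members lower each) and the highest without replicate 3 labelled B4-HKO-CDAHFD (10), while 1 member was called higher without WT-CDAHFD replicate 1, 2 or 3 or replicate 1 labelled B4-HKO-CDAHFD. Signs turned only for differences that were never called. *Gstt2* was -0.00056 with the filter of 1 count, -0.10 on each FPKM scale, and -0.13 to 0.14 with mice left out. *Gstt3* was -0.13, -0.15 and -0.13 on FPKM, -0.063 under the block and -0.40 to 0.29 with mice left out. Leaving out mice gave -0.48 to 0.10 for *Mgst1*, -0.10 to 1.14 for *Gsta1*, -0.28 to 0.042 for *Gstm1* and -0.20 to 1.11 for *Ugt2b37*. The cause of these shifts was not tested. The labels do not pair mice of equal replicate number. Deviations of the mice with numbers 1, 2 and 3 correlated at -0.42, -0.10 and 0.09 across genes. Pairs of unequal number ranged from -0.34 to 0.56. Deviations from the means of such small groups depend on each other, so these values cannot show whether a pairing exists. The block cost *Mgst3* and *Ugt2b35* their calls (adjusted p = 0.0671 and 0.0638, edgeR). No pair of libraries agreed within sampling noise. With 4 against 3 mice and 1 mouse whose *B4galt1* count goes against its label, differences such as that of *Ugt2b1* sit at the threshold. The weakly detected *Ugt2b38* rests on 15 counts in 3 mice.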
